A study of Mus musculus with 6 samples.

Results

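Wnt proteins are secreted signals that bind Frizzled receptors and Lrp co-receptors and let β-catenin enter the nucleus, where it drives the genes that keep colon crypt stem cells and most colon tumors growing. Secreted antagonists hold this signal in check outside the cell. Frizzled-related proteins and Wif1 bind the Wnt ligand, and Dickkopf proteins such as Dkk2 act at the Lrp co-receptors. Notum is an enzyme that removes the lipid a Wnt ligand needs to bind its receptor. In the gut several Frizzled-related proteins are made by cells of the stroma and muscle, while Notum and Wif1 are known as genes that β-catenin itself switches on in tumor epithelium.

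The genes described here are 9 secreted Wnt antagonists, Sfrp1, Sfrp2, Sfrp4, Sfrp5, Frzb, Dkk2, Dkk3, Wif1 and Notum, out of 37325 genes on the array. They were chosen by gene symbol with measured values of these same arrays already known, so every difference given for them is a description, without a test. Together they carry 13 probes. For all 9 genes at least 1 probe exceeded background clearly throughout the 3 arrays of a group, the condition for entering the comparisons.

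Colon tissue with tumors came from C57BL/6 mice in which azoxymethane (AOM), a carcinogen, and dextran sodium sulfate (DSS), which inflames the colon, had induced colitis-associated cancer. All 6 samples shared this induction, and the labels name no genetic change. The study's methods describe 3 independent mice per group. The 3 samples labelled as treated came from mice that took RG@M-γ-CD by mouth, a nanomedicine of the multikinase inhibitor regorafenib enclosed in mannose-modified γ-cyclodextrin, and the 3 control samples came from mice that took PBS by mouth. The study's methods describe a period of observation after the end of treatment, before the colons were taken. The labels give no age. Each sample gave 1 one-color Agilent array. The tissue was taken whole, so fewer cells of a type and less RNA per cell cannot be told apart in any value below.

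A level is the log2 intensity of a probe minus the 75th percentile of its array, so that 0 is the 75th percentile, and levels of different probes are not compared. On each array 49.6% to 55.2% of the gene probes lay well above background. Arrays carry numbers in the deposited data. By the labels RG@M-γ-CD replicates 1, 2 and 3 are arrays 5, 6 and 7, and PBS replicates 1, 2 and 3 are arrays 8, 10 and 11. A supplementary heat map instead places arrays 5, 10 and 11 on one side and arrays 6, 7 and 8 on the other, without naming the conditions, so differences are given by the labels and also as arrays 6, 7 and 8 minus arrays 5, 10 and 11. RG@M-γ-CD replicate 1 stood apart from its group in the smooth muscle markers, and the labelled difference of each antagonist is therefore also given without this array. Its summed muscle markers (104) were nearer to the controls (199 to 232) than those of replicates 2 and 3 were (675 and 809). Without it, only the 2 treated arrays with high muscle markers are compared with the controls.

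Of the 9 genes, 5 have a promoter in the RefSeq table used here, on build GRCm38.p6, namely Sfrp2, Sfrp5, Frzb, Dkk2 and Wif1. These promoters, 250 bases before to 50 after the start, were searched on both strands for CTTTGA and CTTTGT, forms of the core that the TCF and LEF partners of β-catenin recognise. Among all 32851 promoters of the table, 16.0% hold CTTTGA and 18.7% hold CTTTGT on either strand. Frzb held CTTTGA and Dkk2 held CTTTGT, and the other 3 held neither in this window. The share of all promoters that hold either form was not counted, so 2 of 5 cannot be set beside the shares of the single forms. The 2 stretches with a match are shown. Each runs 5′ to 3′ on the strand of its gene, from 150 to 31 bases before the start, with the match in capitals. Frzb is at chr2:80447427-80447546 on the minus strand, with its match on the strand opposite to the gene. Dkk2 is at chr3:132085142-132085261 on the plus strand.
Frzb: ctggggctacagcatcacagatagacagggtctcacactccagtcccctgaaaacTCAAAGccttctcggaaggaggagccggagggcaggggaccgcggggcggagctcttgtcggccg
Dkk2: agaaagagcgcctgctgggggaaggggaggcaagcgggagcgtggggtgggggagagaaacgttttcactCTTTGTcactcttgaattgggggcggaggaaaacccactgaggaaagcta
The Frzb match begins 95 bases and the Dkk2 match 80 bases before the start. A match of 6 letters is a description, not a binding site.

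The 5 Frizzled-related genes had higher mean levels in the RG@M-γ-CD group, by 0.40 to 1.42 on the log2 scale, and the mean levels of Dkk2, Wif1 and Notum were lower. Dkk3 differed by 0.07. Only in Sfrp5 did the 3 treated arrays lie wholly apart from the 3 control arrays. In Sfrp1, Sfrp4, Dkk3, Wif1 and Notum, RG@M-γ-CD replicates 1 and 2 took the extreme places on opposite ends of all 6 arrays.

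**Figure D1:**
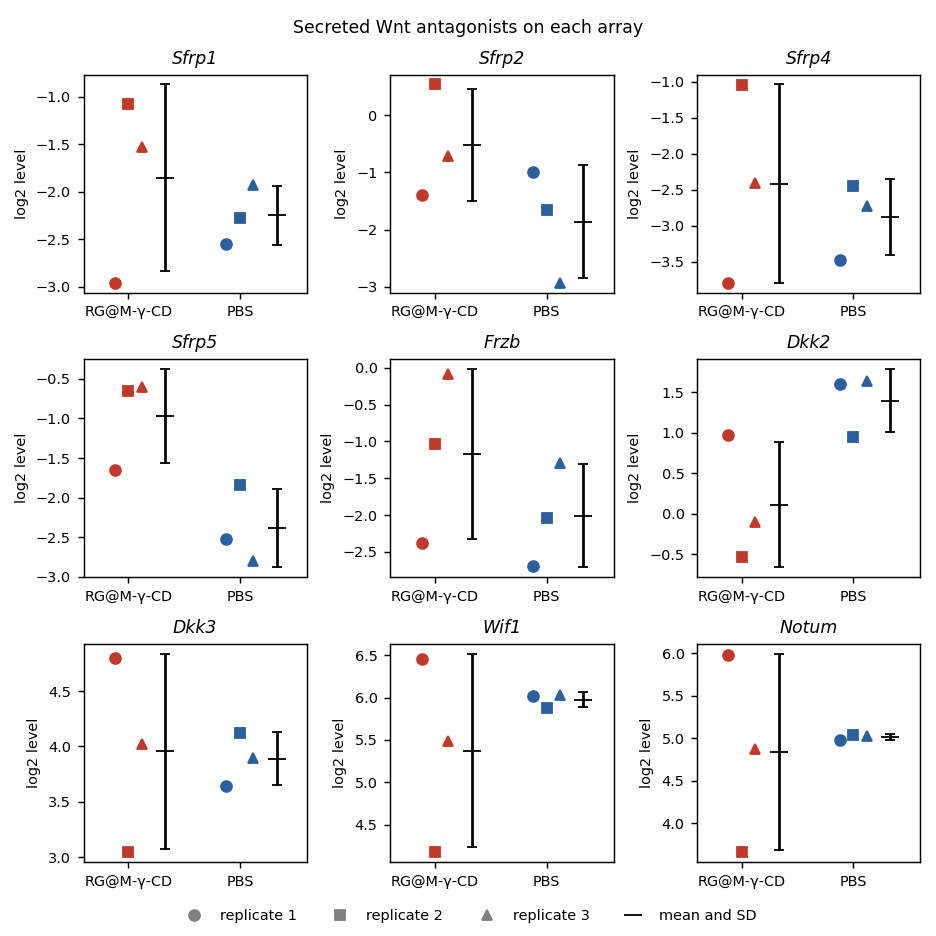
Log2 level of each of the 9 genes (y axis, relative to the array's 75th percentile, own scale per panel) on the 3 RG@M-γ-CD arrays in red and the 3 PBS arrays in blue, with symbols for replicates and a black bar for mean and SD. Sfrp5 is the gene whose groups do not overlap, and the PBS arrays of Notum lie within a narrow band (SD 0.03) while its RG@M-γ-CD arrays spread widely (SD 1.16).

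Sfrp5, a Frizzled-related protein that binds Wnt ligands through a domain like that of the receptor, had levels of -1.65, -0.65 and -0.60 in RG@M-γ-CD replicates 1 to 3 and -2.52, -1.84 and -2.80 in PBS replicates 1 to 3. All treated arrays were higher than all control arrays. The means were -0.97 ± 0.59 (SD, n = 3) and -2.39 ± 0.49 (SD, n = 3), a difference of 1.42 (SE 0.45) or 2.67-fold. The nearest arrays of the groups, RG@M-γ-CD replicate 1 and PBS replicate 2, lay close together. Leaving out RG@M-γ-CD replicate 1 gave 1.76, and the lowest value without any 1 array was 1.21, without PBS replicate 3. With normexp background correction the labelled difference was 0.92, the lowest of all 15 settings. By the sides of the heat map the difference was 0.84 (SE 0.72), or 0.49 to 1.47 with 1 array left out, and the sides overlapped. Its probe lies at chr19:42272509-42272568 on build mm9, the build of all probe positions below.

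Sfrp2, a Frizzled-related protein made mainly by fibroblasts, had levels of -1.40, 0.54 and -0.72 in RG@M-γ-CD replicates 1 to 3 and -0.98, -1.67 and -2.93 in PBS replicates 1 to 3. RG@M-γ-CD replicate 1 lay below PBS replicate 1, so the groups overlapped. The means were -0.52 ± 0.98 and -1.86 ± 0.99 (SD, n = 3 each), a difference of 1.34 (SE 0.80) or 2.52-fold. The difference was 1.77 when RG@M-γ-CD replicate 1 was left out, 0.80 when RG@M-γ-CD replicate 2 was left out and 0.80 when PBS replicate 3 was left out. Within the slide row that holds both groups, where PBS replicate 1 is the only control, it was 0.46. Sfrp2 had the widest range of the 9 genes, 3.47 on the log2 scale or 11.1-fold from PBS replicate 3 to RG@M-γ-CD replicate 2. Arrays 6, 7 and 8 all lay above arrays 5, 10 and 11, with a difference of 1.61 (SE 0.67), or 1.14 to 1.91 with 1 array left out. Its probe lies at chr3:83577864-83577923.

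Sfrp1 and Sfrp4 are further Frizzled-related proteins of the stroma. Sfrp1 had levels of -2.96, -1.08 and -1.53 in the RG@M-γ-CD arrays and -2.55, -2.27 and -1.93 in the PBS arrays, in replicate order. Sfrp4 had levels of -3.79, -1.04 and -2.41 in the RG@M-γ-CD arrays and -3.47, -2.44 and -2.72 in the PBS arrays. In both genes RG@M-γ-CD replicate 1 was the lowest of the 6 arrays and replicate 2 the highest, so the groups overlapped and the treated group spanned the controls. The difference was 0.40 (SE 0.59) for Sfrp1 and 0.46 (SE 0.85) for Sfrp4, each smaller than the SD of the treated arrays (0.98 and 1.38). Single arrays moved both values. For Sfrp1 the difference was 0.95 when RG@M-γ-CD replicate 1 was left out, 0.01 when replicate 2 was and 0.23 when replicate 3 was, and 0.25 when PBS replicate 1 was left out. For Sfrp4 it was 1.15 when RG@M-γ-CD replicate 1 was left out, turned to -0.22 when replicate 2 was, and was 0.17 when PBS replicate 1 was left out. Within the slide row of both groups it was 0.69 for Sfrp1 and 1.06 for Sfrp4. By the heat map sides the differences were 0.67 (SE 0.53) and 0.68 (SE 0.82), with overlap in both. With 1 array left out these ran from 0.35 to 1.08 and from 0.04 to 1.26. The probes lie at chr8:24559438-24559497 for Sfrp1 and chr13:19724488-19724547 for Sfrp4.

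Frzb, the Frizzled-related protein also called Sfrp3, had levels of -2.38, -1.04 and -0.09 in the RG@M-γ-CD arrays and -2.69, -2.04 and -1.30 in the PBS arrays. RG@M-γ-CD replicate 3 was the highest array and PBS replicate 1 the lowest, and RG@M-γ-CD replicate 1 lay below PBS replicates 2 and 3. The difference was 0.84 (SE 0.78), and it was 1.45 when RG@M-γ-CD replicate 1 was left out, 0.30 when replicate 3 was and 0.50 when PBS replicate 1 was. Within the slide row of both groups it was 1.53. By the heat map sides it was 0.63 (SE 0.83), with 0.04 when RG@M-γ-CD replicate 3 was left out and 1.34 when PBS replicate 1 was. A second probe also had RG@M-γ-CD replicate 3 as its highest array, but RG@M-γ-CD replicate 1 as its lowest. It gave a difference of 0.64 (SE 0.82). Both probes overlapped between the groups. They lie at chr2:80252127-80252186 and chr2:80252582-80252641.

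Dkk2, a Dickkopf protein that binds the Lrp co-receptors, had levels of 0.97, -0.53 and -0.10 in the RG@M-γ-CD arrays and 1.61, 0.95 and 1.63 in the PBS arrays. RG@M-γ-CD replicate 1 exceeded PBS replicate 2 by a small margin, so the groups overlapped at that point, while RG@M-γ-CD replicates 2 and 3 lay below every control array. The means were 0.11 ± 0.77 and 1.40 ± 0.39 (SD, n = 3 each), a difference of -1.28 (SE 0.50), or 2.44-fold higher in PBS. By the heat map sides the difference was -0.86 (SE 0.69), or -1.50 to -0.43 with 1 array left out, with overlap. The Dkk2 difference stayed below 0 in all 15 other ways of processing or choosing the arrays, between -1.71, when RG@M-γ-CD replicate 1 was left out, and -0.96, when replicate 2 was. Not all of these ways could move it. The other filters on dim probes, the mean over the gene's probes and the replicate block left it at -1.28. Its probe lies at chr3:131842357-131842416.

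Dkk3, a diverged member of the Dickkopf family, had levels of 4.80, 3.04 and 4.02 in the RG@M-γ-CD arrays and 3.64, 4.12 and 3.89 in the PBS arrays. The treated arrays lay at both ends of the 6, with the controls between. The difference was 0.07 (SE 0.53) by the labels and -0.70 (SE 0.39) by the heat map sides. Leaving out RG@M-γ-CD replicate 1 turned the labelled difference to -0.35, leaving out PBS replicate 1 turned it to -0.05, and leaving out RG@M-γ-CD replicate 2 raised it to 0.53. Within the slide row of both groups it was 0.31, and -1.23 by the heat map sides. Of its 2 other probes, one again had RG@M-γ-CD replicate 1 highest and replicate 2 lowest and gave 0.07 (SE 0.67). The other lay near background, was not well above it on RG@M-γ-CD replicate 2 and gave -0.01. The brightest probe lies at chr7:119259556-119259615.

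Wif1, which binds Wnt ligands through a domain of its own, had levels of 6.45, 4.18 and 5.49 in the RG@M-γ-CD arrays and 6.01, 5.87 and 6.04 in the PBS arrays. The control arrays lay close together, and the treated arrays lay on both sides of them. The means were 5.37 ± 1.14 and 5.97 ± 0.09 (SD, n = 3 each), and the difference of -0.60 (SE 0.66) was smaller than the SD of the treated arrays. Leaving out RG@M-γ-CD replicate 1 brought it to -1.14, and leaving out replicate 2 brought it to -0.0012. By the heat map sides it was -0.89 (SE 0.57), or -1.29 to -0.37 with 1 array left out, with overlap. The probe lies at chr10:120537079-120537138.

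Notum, the Wnt-inactivating enzyme, had levels of 5.98, 3.66 and 4.88 in the RG@M-γ-CD arrays and 4.98, 5.04 and 5.03 in the PBS arrays. The control arrays were nearly level, while RG@M-γ-CD replicate 1 was 4.99-fold above replicate 2. The difference of the means was -0.18 (SE 0.67) by the labels and was -0.75 when RG@M-γ-CD replicate 1 was left out and 0.41 when replicate 2 was. By the heat map sides arrays 6, 7 and 8 all lay below arrays 5, 10 and 11, with a difference of -0.84 (SE 0.53), or -1.08 to -0.42 with 1 array left out. A second probe had the same highest and lowest array and differed by -0.24 (SE 0.77) by the labels. Its PBS arrays were less level (SD 0.23). By the heat map sides it differed by -0.84 (SE 0.65), and the sides overlapped. The probes lie at chr11:120515209-120515268 and chr11:120518888-120519237, the second position being longer than the probe itself.

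Taking the 9 genes as a list, 6 had a higher mean in RG@M-γ-CD and 3 a lower one, and their median difference was 0.40, beside -0.01 for all 19090 genes tested, of which 47.2% were higher. Leaving out RG@M-γ-CD replicate 1 raised the median to 0.95, with 5 of the 9 higher. In limma's moderated test with Benjamini-Hochberg adjustment over all genes, 0 of the 9 passed an adjusted p of 0.05, and 0% of all genes did, the smallest adjusted p of any gene being 0.818. At an unadjusted p under 0.05, limma marked 2 of the 9, Sfrp5 and Dkk2, beside 2.19% of all genes, and the methods' t-test marked 1, Sfrp5, beside 2% of all genes. The treated arrays lay above all controls in 1 of the 9, Sfrp5, beside 2.38% of all genes, and below all controls in 0 of the 9, beside 2.19%. These shares are given beside values that chose the genes and carry no weight as evidence.

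By the heat map sides, 5 of the 9 were higher in arrays 6, 7 and 8, with a median difference of 0.63, beside -0.12 for all 19298 genes tested. These 5 were the Frizzled-related genes, and the 4 lower ones were Dkk2, Dkk3, Wif1 and Notum. The adjusted p of 0.05 was met by 0 of the 9 in limma, beside 0.0259% of all genes, and 1, Sfrp2, had an unadjusted p under 0.05, beside 16.5% of all genes. Arrays 6, 7 and 8 lay wholly above the others in 1 gene, Sfrp2, beside 7.07% of all genes. They lay wholly below in 1, Notum, beside 18.4%, but the second probe of Notum overlapped. Leaving out 1 array at a time moved this median between 0.04 and 1.08.

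**Figure D2:**
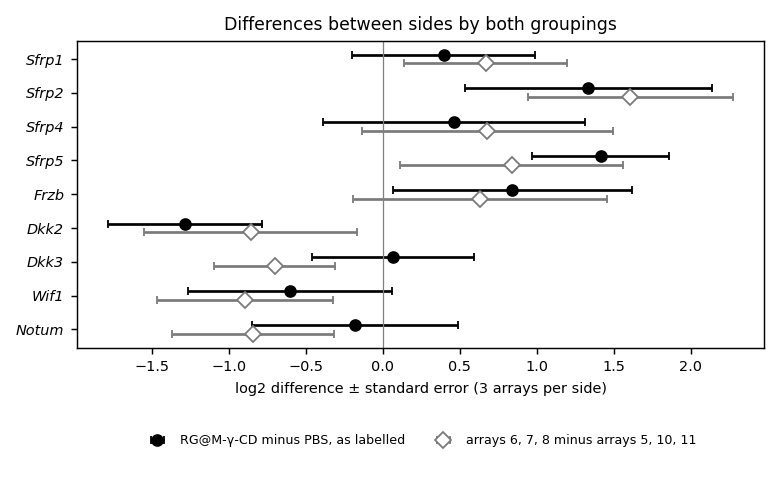
Log2 difference with its standard error for each of the 9 genes, with the arrays grouped by the labels (black circles, RG@M-γ-CD minus PBS) and as arrays 6, 7 and 8 minus arrays 5, 10 and 11 (open diamonds), 3 arrays per side. The 5 Frizzled-related genes lie right of 0 by both groupings, and Dkk3 lies at 0.07 by the labels and at -0.70 by the heat map sides.

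Several of the genes shared the arrays at which they were highest and lowest. Wif1, Notum and Dkk3 were all highest in RG@M-γ-CD replicate 1 and lowest in RG@M-γ-CD replicate 2, and Dkk2 was also lowest in replicate 2. Sfrp1 and Sfrp4 ran the other way, and Sfrp2 was highest in replicate 2. After each gene was centred on its own mean over the 6 arrays, Wif1 and Notum differed by a root mean square of 0.22 on the log2 scale, Dkk3 and Notum by 0.24 and Sfrp1 and Sfrp4 by 0.38. Sfrp5 and Frzb had neither of these orders, and the distance between Frzb and Sfrp2 (1.20) exceeded that between Frzb and Dkk3 (1.15). Dkk2 and Sfrp2 were the least alike of all pairs, at 1.77. These distances rest on 6 arrays that share their preparation, and they are given as a description.

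**Figure D3:**
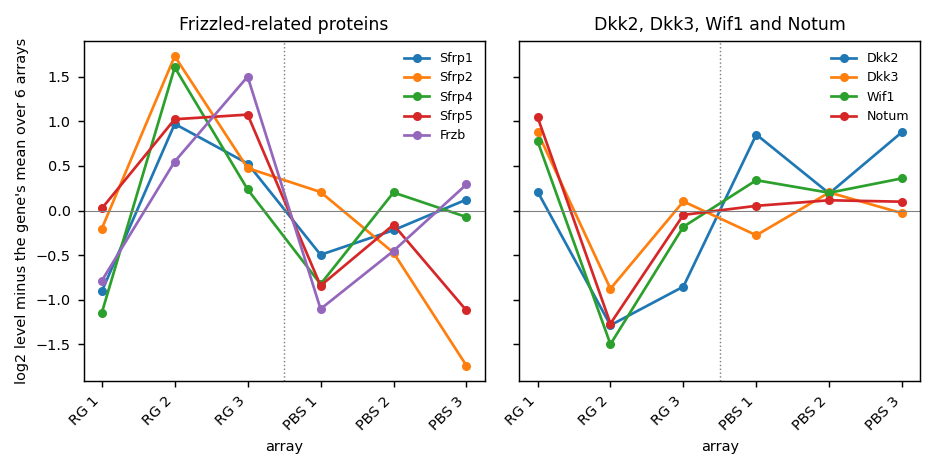
Centred log2 level (y axis, the gene's mean over 6 arrays set to 0) of the 5 Frizzled-related genes on the left and of Dkk2, Dkk3, Wif1 and Notum on the right, across the 3 RG@M-γ-CD arrays (RG) and the 3 PBS arrays, divided by a dotted line. On the right every line has its lowest point at RG 2, and on the left Sfrp1, Sfrp2 and Sfrp4 have their highest point there.

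The spread within the treated group was wide for these genes. The SD over the 3 RG@M-γ-CD arrays was larger than that over the 3 PBS arrays in 8 of the 9, the exception being Sfrp2, and in 66.2% of all genes. In Notum it was 1.16 against 0.03, and in Wif1 1.14 against 0.09. The range over all 6 arrays was 1.76 to 3.47 on the log2 scale for the 9 genes, where the median range of all genes was 0.72. Dkk3 had the smallest range of the 9, wider than that of 87.4% of all genes.

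The genes whose centred profile lay closest to each antagonist were found among all other genes tested. Nearest to Wif1 were Cubn (0.07), Vill (0.10) and Nanos1 (0.11), the value being the root mean square difference on the log2 scale. Nearest to Notum were Dach1 (0.07), Abhd12 (0.10) and Bglap (0.10), and the nearest named genes to Dkk3 were 9930012K11Rik (0.10) and Trim62 (0.10). Each of these genes thus ran within a small distance of the antagonist on all 6 arrays. For Frzb the nearest were Syngr3 (0.15), Grem1 (0.18), which encodes a secreted antagonist of bone morphogenetic proteins, and Matn4 (0.19). For Sfrp1 they were Gm32949 (0.11), Ces2b (0.11) and Cyp2j9 (0.13), and for Dkk2 they included 4631405K08Rik (0.15) and Gm5150 (0.18). The remaining profiles had no gene as close. Sfrp2 had Fmo1 (0.19) and then Timp4 (0.33), Sfrp4 had Hes2 (0.22), Atp8b5 (0.24) and Gm15816 (0.24), and Sfrp5 had Gas1 (0.28), Tbxa2r (0.30) and 0610005C13Rik (0.32).

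The rest of the Wnt pathway was described through 93 further genes in 6 lists, of which 74 were tested. By the labels 33 had a higher mean in RG@M-γ-CD and 41 a lower one, with a median difference of -0.04, and 0 passed an adjusted p of 0.05 in limma or in the methods' t-test. At an unadjusted p under 0.05, limma marked 0 higher and 1 lower, the receptor Fzd3, which differed by -0.81 (SE 0.36, adjusted p = 1 in limma). When RG@M-γ-CD replicate 1 was left out, 2 of these genes passed the adjusted threshold, the ligand Wnt3 and the R-spondin Rspo3, and 0 of the 9 antagonists did, beside 1.04% of all genes.

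Among genes close in role, 8 of 14 other Wnt antagonists were tested, 4 higher and 4 lower, with Trabd2b, which cleaves Wnt ligands, at 0.56, Shisa2 at 0.38, Apcdd1 at -0.62 and Tpbg at -0.61. Dkk1, Dkk4, Sost, Sostdc1, Cer1 and Draxin were not well above background on all arrays of either group. Of 19 Wnt ligands, 9 were tested, with a median difference of -0.33, Wnt4 at 0.19, Wnt5b at 0.07, Wnt3 at -0.84 and Wnt6 at -0.72. All 16 receptors were tested, 11 of them higher, with Ror1 at 0.67, Fzd2 at 0.47 and Fzd10 at -0.41. None of these values is called changed, since none passed the adjusted test. The R-spondins, which amplify Wnt signals, gave Rspo3 at 1.03 and Rspo1 at 1.03, while the ubiquitin ligases Rnf43 and Znrf3, which remove Frizzled receptors, were at -0.35 and -0.26. Among 18 tested genes of Wnt secretion and transduction the extremes were Porcn at 0.46, Btrc at 0.36, Apc at -0.20 and Bcl9 at -0.17.

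**Figure D4:**
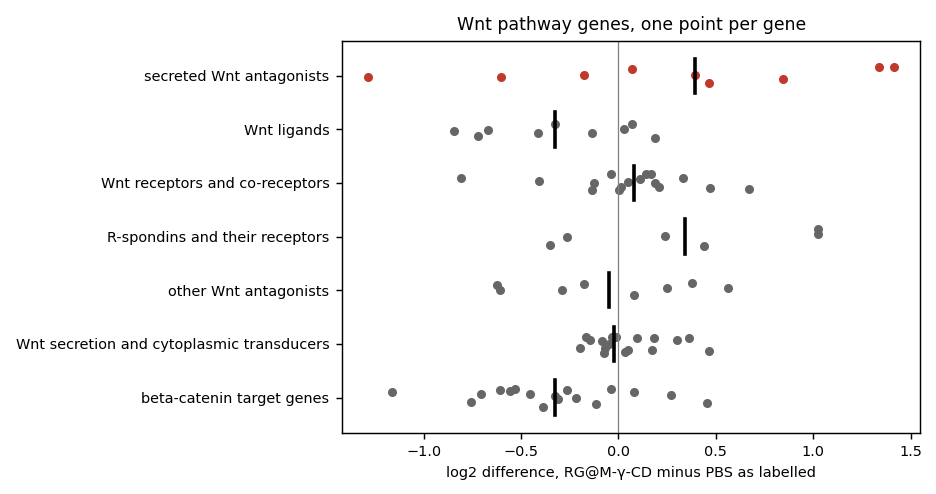
Log2 difference, RG@M-γ-CD minus PBS as labelled, with 1 point per gene for the 9 secreted Wnt antagonists (red) and the 6 further Wnt pathway lists (grey), a black bar marking each list's median. The antagonists run from -1.28 for Dkk2 to 1.42 for Sfrp5, and the median of the β-catenin target genes is -0.33.

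All 17 β-catenin target genes were tested, 3 with a higher and 14 with a lower mean in RG@M-γ-CD, and a median of -0.33 and 0 past the adjusted threshold. The extremes were Nkd2 at 0.46, Ascl2 at 0.27, Mmp7 at -1.16 and Sp5 at -0.76. Across the arrays 12 of the 17 were highest in RG@M-γ-CD replicate 1 and lowest in replicate 2, the profile of Wif1, Notum and Dkk3, and 20.4% of all genes had it. Sp5, for one, had levels of 4.53, 0.85 and 2.38 in the RG@M-γ-CD arrays and 3.33, 3.30 and 3.40 in the PBS arrays. As in Notum, the controls lay close together and the treated arrays on both sides of them.

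Markers of some cell types, those of muscle, enteric nerve and fibroblasts, differed between the treated arrays as well. The summed level of 8 smooth muscle markers, in multiples of the array's 75th percentile, was 104, 675 and 809 in RG@M-γ-CD replicates 1 to 3 and 232, 199 and 222 in the PBS arrays. All 8 were lowest in RG@M-γ-CD replicate 1 and highest in replicate 2 or 3, and 14% of all genes had that profile. Among the antagonists Sfrp1, Sfrp4 and the second probe of Frzb had it, but not the brighter probe of Frzb. So did 6 of 7 enteric neuron and glia markers and 5 of 7 fibroblast markers, but 1 of 10 epithelial, 1 of 6 immune and 0 of 5 endothelial markers. The enteric neuron and glia list, 7 of 8 genes tested, gave 5.03, 13.8 and 14.2 against 6.47, 7.11 and 9.38. The fibroblast list of 7 gave 87.7, 152 and 149 against 116, 121 and 120. Both lists were thus lowest in RG@M-γ-CD replicate 1 and highest in replicates 2 and 3, like the muscle list. The part of these cell types in the differences of the antagonists was not tested.

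**Figure D5:**
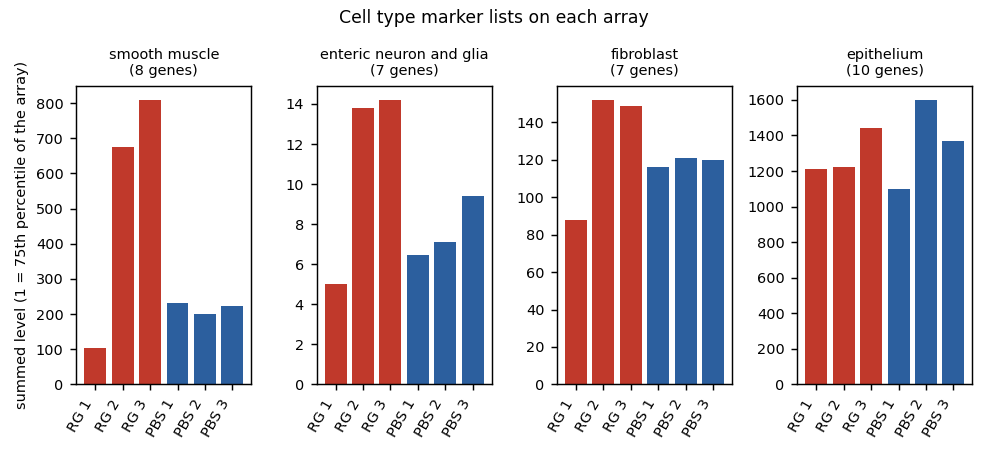
Summed level of the tested markers of smooth muscle, enteric neurons and glia, fibroblasts and epithelium (y axis, in multiples of the array's 75th percentile, from 0, own scale per panel) in the 3 RG@M-γ-CD arrays in red and the 3 PBS arrays in blue. Smooth muscle markers run from 104 to 809 within the treated group, and epithelial markers are near level between RG 1 and RG 2 (1210 and 1220).

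The summed level of 10 epithelial markers was 1210, 1220 and 1440 in RG@M-γ-CD replicates 1 to 3 and 1100, 1600 and 1370 in the PBS arrays. The sums of RG@M-γ-CD replicates 1 and 2 were thus nearly level, but single markers moved both ways between them. Cdx1 had levels of 5.81 and 6.65 in these replicates, and Epcam 5.26 and 4.74. Notum differed 4.99-fold and Wif1 4.85-fold between the same 2 arrays. The part of epithelial cells in these values was not tested. Immune markers summed to 13.2 to 19.3 in the RG@M-γ-CD arrays and 19.7 to 25 in the PBS arrays, 0 of the 6 genes having a higher mean in RG@M-γ-CD and 0 passing the adjusted test. In each of these 6 genes the arrays of the groups overlapped. Crypt-niche fibroblast markers, which include Grem1, summed to 12.3 to 27.2 against 11.3 to 16.7. Grem1 differed by 0.65, but Bmp4 by 0.06, Bmp5 by -0.05 and Foxl1 by -0.25, and the median of the list was 0.005. The endothelial list gave 7.88 to 12.3 against 5.91 to 10, and the interstitial cell of Cajal list 35.9 to 51.7 against 40.2 to 46.5. The adipocyte list rested on 3 of 5 genes, with Plin1 below background on all arrays. It gave 5.29 to 13.5 against 3.57 to 6.63. Most of this sum was Fabp4, which differed by 0.86, while Cidec differed by 0.96 and Lep by -0.07. The mesothelial list rested on 1 of 4 genes, with Upk3b and Lrrn4 below background on all arrays. The exocrine pancreas list rested on 3 of 5 genes. It summed to 0.111 to 0.126 in the RG@M-γ-CD arrays and to 0.242, 2.8 and 0.258 in PBS replicates 1 to 3. All 3 PBS sums thus exceeded those of the RG@M-γ-CD arrays, while the value of 2.8 came from 1 array. These genes were dim, with Prss2 at -6.93, -6.44 and -6.54 in the RG@M-γ-CD arrays and -3.05, -0.28 and -4.34 in the PBS arrays. None of the 3 passed the adjusted test, and the sums were not tested.

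Of 7 listed markers of the posterior gut, 3 were tested. Hoxd13, singled out after its values were seen, separated the arrays as the heat map does. Its levels were -3.77, 3.20 and 2.33 in RG@M-γ-CD replicates 1 to 3 and 3.35, -0.09 and -2.89 in PBS replicates 1 to 3. Arrays 6, 7 and 8 thus lay above arrays 5, 10 and 11, as they did in 7.07% of all genes. Hoxb13 and Hoxa13, also posterior, showed no such split, at 6.52, 6.60 and 6.66 against 6.14, 6.79 and 6.30 for Hoxb13. Sfrp2 was separated in the same direction, and the brighter probe of Notum in the opposite one, as 18.4% of all genes were. The second probe of Notum was not separated. The part of position along the colon in these values was not tested.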

How the data were processed

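RNA of colon tissue with tumors in 6 samples was labelled with Cy3 and hybridised to Agilent SurePrint G3 mouse arrays, 1 per sample. The intensity values deposited for each array were made by the authors with Agilent Feature Extraction 10.7.1.1, which subtracted local background and spatial trends without normalization between arrays. The deposited table of log2 values, with columns that the authors had processed further, followed the intensities of its arrays (lowest correlation 0.999) and was used as an alternative; its method of normalization is not given in the sources used here.

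Samples were grouped by the labels. Log2 processed intensities were set relative to each array's 75th percentile over gene probes, leaving out 790 spots marked as outliers, none of them on a probe of the 9 genes. No gene spot was saturated. Spots of a probe were averaged, and a gene was represented by the brightest of its probes that exceeded background clearly throughout the 3 arrays of a group. Symbols were updated through RefSeq accessions for 58.3% of the 56605 probes. Genes were compared with limma 3.58.1 in R 4.3.3 (two-sided, Benjamini-Hochberg over all genes tested), and scripts were tested on simulated data. The methods' t-test was run on the same values. Precision is limited by the number of arrays. The study describes its samples as independent mice, so p-values measure the spread between mice.

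The 9 genes and the lists of Wnt pathway and cell type genes were chosen with earlier results of these data known. Named genes were all 9 antagonists; of each pathway list, the 2 largest rises and falls by the labels among tested genes and every gene at an unadjusted p under 0.05; and the 3 nearest profiles per antagonist, not all of which are reported here. Hoxd13, Hoxb13, Hoxa13 and the genes named only as untested were singled out after their values were seen. All 6 arrays shared 1 slide and 1 scan. Samples with the same replicate number did not deviate together (correlations -0.25, -0.233 and 0.136), so the numbers were not used as pairs.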

Additional observations from a re-analysis of the deposited data

How the results depend on the processing

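With the labels' grouping, 0 genes and 0 further Wnt pathway genes passed an adjusted p of 0.05 under quantile normalization, normexp background correction, the authors' table, either other filter on dim probes, the mean over probes, kept outlier spots, the methods' t-test and the slide row as a block. In these settings, the t-test aside, 6 of the 9 antagonists were higher in RG@M-γ-CD and their median difference ran from 0.22 to 0.46, the latter with the slide row as a block, which compares the 3 treated arrays with PBS replicate 1 in the same row; the median by the heat map sides ran from 0.40 to 0.64. With the replicate block 0 genes passed and the median was 0.40, with no call changed. Leaving out 1 array at a time gave 0 to 202 genes and 0 to 2 pathway genes past the threshold, the highest of both without RG@M-γ-CD replicate 1 (163 higher and 39 lower), 5 to 6 antagonists higher, and medians of 0.17 to 0.95 by the labels and 0.0388 to 1.08 by the heat map sides. The heat map median fell to 0.27 without RG@M-γ-CD replicate 1, 0.0446 without replicate 2 and 0.0388 without replicate 3, and was 1.08 without PBS replicate 1. Grouping the arrays as the heat map does gave 5 genes. The cause was not tested. By the labels Sfrp4, Dkk3 and Notum changed sign in at least 1 of the 15 settings, and Sfrp1, Sfrp2, Sfrp5, Frzb, Dkk2 and Wif1 in none. Normexp lowered the differences of all 5 Frizzled-related genes, to 0.22 for Sfrp1, 0.96 for Sfrp2, 0.27 for Sfrp4, 0.92 for Sfrp5 and 0.57 for Frzb. Their size thus depends on the background correction. The 15 settings are not independent checks. The other filters on dim probes and the replicate block left the labelled differences as reported, and the authors' table nearly repeated quantile normalization.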
